A study of Homo sapiens with 18 samples.

Results

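TAGLN and 9 other genes of the actin cytoskeleton and of the growth and stretch response were followed in HepG2 cells, a human liver line from a hepatoblastoma, treated with ligands of the nuclear receptor LRH-1. The 10 genes were taken from the count table by symbol out of 35238 gene rows, and all 10 were among the 14797 genes with enough counts to be tested. TAGLN was selected on its measured counts, which were lower in cells given the phospholipid DLPC than in cells given ethanol, and the other 9 for being SRF or YAP targets, so the values of that contrast are given as a description, and its calls are counted beside the share of all genes called and support nothing. Of the 18 libraries, 3 each came from cells given 6N, 10CA or 6N-10CA at 10 µM, DLPC (dilauroylphosphatidylcholine) at 100 µM, 0.1% ethanol and 0.1% DMSO. The ethanol and DMSO groups are called Ethanol and DMSO here, and the pairing of DLPC with Ethanol and of the 3 small molecules with DMSO follows what is known of the study rather than the labels. All groups share the medium, DMEM with 10% serum that was charcoal-stripped during treatment, and the length of treatment is not given in the sources used here. The name 6N-10CA joins those of 6N and 10CA. The labels number the replicates 1 to 3 but do not say that they were separate cultures, so p-values measure the spread between these libraries, which may be technical.

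SRF (serum response factor) is a transcription factor that binds a sequence called the CArG box in the promoters of actin, tropomyosin, myosin and calponin genes. Its cofactors, the MRTFs, are held in the cytoplasm by monomeric actin and enter the nucleus when actin polymerises, so that actin genes are both targets of the pathway and part of its sensor. YAP is the coactivator that the kinases of the Hippo pathway keep out of the nucleus, and it acts on DNA through the TEAD factors. In liver both pathways are studied for organ size, for fibrosis, where stellate cells raise TAGLN and smooth muscle actin, and for cancers of the liver.

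Levels are given as CPM, the count divided by the library total and set to a common scale, after scaling library sizes by the trimmed mean of M values (TMM), as mean ± SD of 3 libraries. The libraries held 28135967 to 34992442 counts. The 9 markers of hepatocytes and hepatoblastoma, among them ALB and AFP, were all tested and summed to 55596 to 74089 CPM per library. Of 11 stromal and smooth muscle markers, 4 passed the filter on low counts (COL1A1, PDGFRB, MYH11 and ACTA2), LMOD1 had no count in any of the 18 libraries, and COL1A2, COL3A1, DES, PDGFRA, LUM and DCN had at most 16 counts in a library. Most of that list's summed level was ACTA2, at a mean of 99.1 CPM. In these bulk samples, fewer cells of a type and less RNA per cell cannot be told apart.

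The levels of the 10 genes differed widely when set per kilobase of annotated exon (RPKM over all exons of the gene). The cytoplasmic actins ACTB and ACTG1, which build the filaments of every cell, averaged 2057 and 798 RPKM over the 18 libraries, and their CPM ranked 6 and 26 of the tested genes. CTGF, a secreted matrix protein that is among the best known YAP targets, followed at 157 RPKM, and CNN2, the calponin of non-muscle cells, at 46.2 RPKM. TAGLN, an actin-binding protein of smooth muscle also called SM22, was at 7.07 RPKM and CYR61, a matrix protein of the CTGF family, at 6.97 RPKM. TPM1, a tropomyosin that lines the actin filament, was at 4.62 RPKM. MYL9, a myosin regulatory light chain, was at 3.48 RPKM, ANKRD1, a nuclear and sarcomeric protein induced by YAP, at 1.58 RPKM, and TPM2, another tropomyosin, at 0.474 RPKM. When counts were set against the longest coding transcript instead, TPM1 was at 15.04, TAGLN at 12.78, CYR61 at 7.47 and TPM2 at 1.11 RPKM. On that length ACTB was at 3769, ACTG1 at 1058 and CNN2 at 76.7 RPKM, while CTGF, MYL9 and ANKRD1 were unchanged. TPM2 and ANKRD1 rested on 26 to 63 and 47 to 141 counts per library, so their values are the least precise of the 10.

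Promoter sequence was at hand for 6 of the 10 genes in RefSeq (build GRCh38.p14), as windows of 250 bases before and 50 bases after the start site. The 4 windows that held a CArG box or the TEAD motif GGAATG are shown without the 50 bases after the start, 5′ to 3′ on the strand of the gene, since these are the sequences by which the 2 pathways are known to reach their targets. They are chr17:81512800-81513049 (minus strand) for ACTG1, chr19:1026358-1026607 (plus strand) for CNN2, chr6:131951373-131951622 (minus strand) for CTGF and chr10:90921088-90921337 (minus strand) for ANKRD1, and capitals mark the motif matches.
ACTG1: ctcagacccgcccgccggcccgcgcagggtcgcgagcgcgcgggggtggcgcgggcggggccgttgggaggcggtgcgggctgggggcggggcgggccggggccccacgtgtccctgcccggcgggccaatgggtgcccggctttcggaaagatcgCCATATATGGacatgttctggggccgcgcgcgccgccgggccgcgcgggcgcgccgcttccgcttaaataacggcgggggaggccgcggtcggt
CNN2: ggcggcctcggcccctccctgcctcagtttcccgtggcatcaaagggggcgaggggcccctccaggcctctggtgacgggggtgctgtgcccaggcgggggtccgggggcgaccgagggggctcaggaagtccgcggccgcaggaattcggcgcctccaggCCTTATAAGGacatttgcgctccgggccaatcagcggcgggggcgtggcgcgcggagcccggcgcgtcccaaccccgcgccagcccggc
CTGF: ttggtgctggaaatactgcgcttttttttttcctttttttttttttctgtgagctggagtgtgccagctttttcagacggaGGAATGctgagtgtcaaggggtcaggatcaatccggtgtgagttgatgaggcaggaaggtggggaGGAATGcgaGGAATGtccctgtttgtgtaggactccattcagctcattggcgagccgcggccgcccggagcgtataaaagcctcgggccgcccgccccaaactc
ANKRD1: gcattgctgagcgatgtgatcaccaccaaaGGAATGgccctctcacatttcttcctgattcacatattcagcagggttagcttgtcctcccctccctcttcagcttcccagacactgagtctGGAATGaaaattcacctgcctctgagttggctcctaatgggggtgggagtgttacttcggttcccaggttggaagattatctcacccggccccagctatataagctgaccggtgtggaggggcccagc

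The CArG box of ACTG1 began 94 bases and that of CNN2 89 bases before the start site. CTGF held GGAATG at 169, 104 and 95 bases before its start, and ANKRD1 at 220 and 128 bases. No window held both motifs, so no match overlapped one of the other kind, and the windows of TPM1 and TPM2 held neither. The only TPM1 window (chr15:63048239-63048538, plus strand) lay inside the annotated gene (chr15:63042632-63071915). The sequence before the annotated start of TPM1 was therefore not searched. Over 35116 promoter windows of the same 300 bases, searched on both strands, 1.293% held a CArG box and 14.033% held GGAATG.

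TAGLN was lowest in all 3 DLPC libraries. It had 16.8, 19.4 and 18.01 CPM in DLPC-treated cells (467, 561 and 577 counts), against 31.0, 35.6 and 29.9 CPM in Ethanol cells (965, 1170 and 832 counts). The other groups had 30.5, 34.2 and 24.3 CPM with 6N, 27.4, 29.8 and 26.4 CPM with 10CA, 25.5, 30.8 and 27.3 CPM with 6N-10CA, and 31.3, 30.9 and 29.1 CPM with DMSO. No DLPC library reached the lowest of the other 15, and the remaining 5 groups ran from 24.3 to 35.6 CPM, overlapping except that the 10CA libraries lay just below the Ethanol libraries. The DLPC mean of 18.1 ± 1.30 CPM was 0.562 of the Ethanol mean of 32.2 ± 3.03 CPM (SD, n = 3 each), a log2 fold change of -0.83 (SE 0.11). Against DMSO, which does not share the Ethanol libraries, the log2 difference of the same DLPC libraries was -0.75, and against both vehicles averaged -0.79. PCSK7, a proprotein convertase gene on the opposite strand that overlaps TAGLN (chr11:117199321-117204782, plus strand, GRCh38), averaged 37.3 ± 1.37 CPM with DLPC and 38.1 ± 1.77 CPM with Ethanol, a log2 difference of -0.03 (SE 0.06). The stromal markers summed to 97.4 to 105.6 CPM in DLPC libraries and 109.7 to 115.3 CPM in Ethanol libraries. Most of that sum was ACTA2, which is also on the list of cytoskeletal SRF targets. The part of these markers in the TAGLN difference was not tested.

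**Figure D1:**
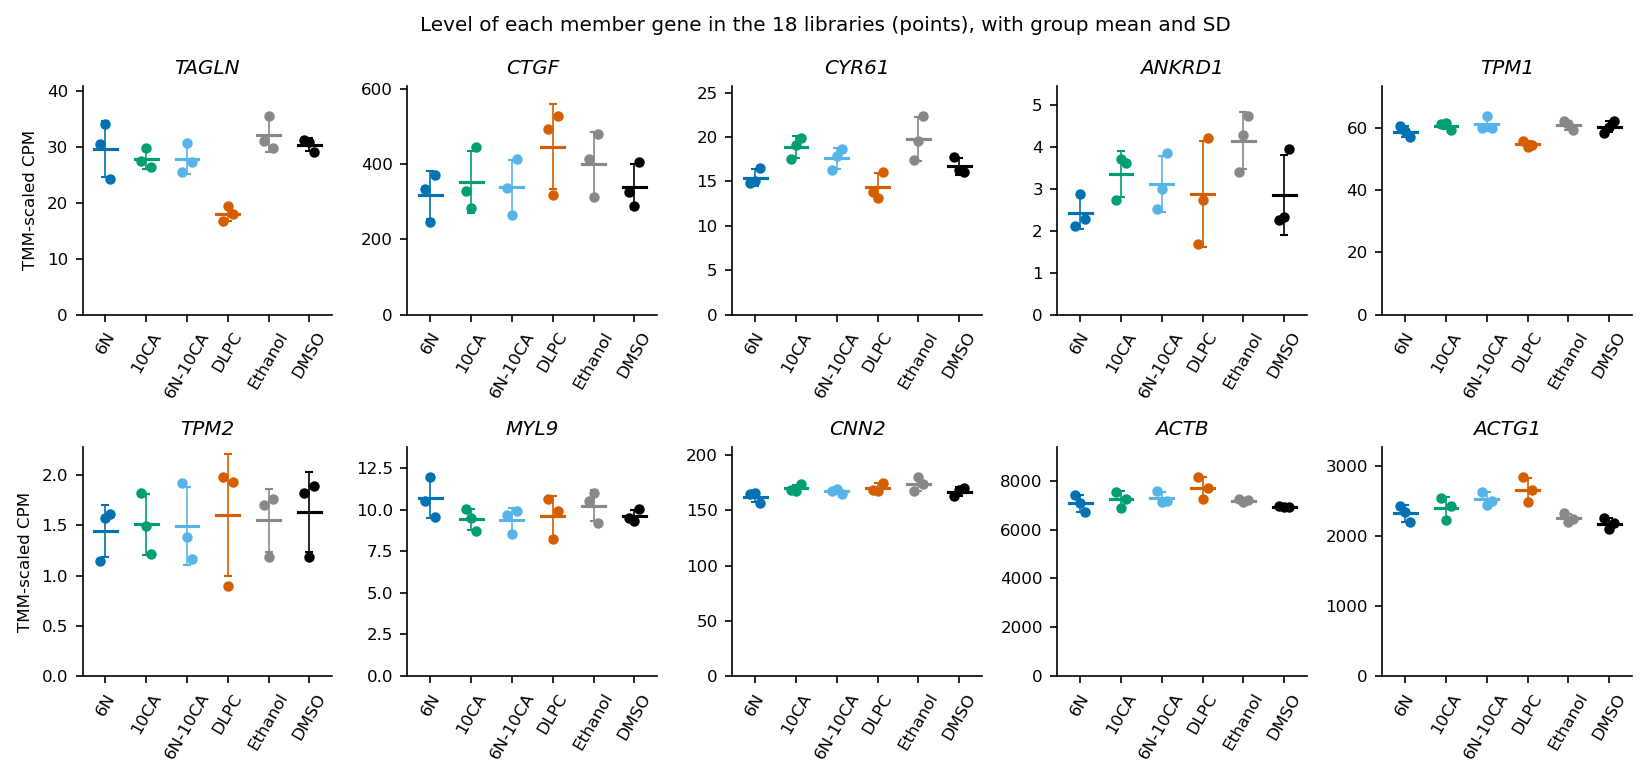
TMM-scaled CPM of the 10 genes in each of the 18 libraries (points), with the mean (line) and SD (bars) of 3 libraries per group and every axis starting at 0. TAGLN lies at 16.8 to 19.4 CPM in the DLPC libraries and at 24.3 CPM or more in every other library, while CNN2 and TPM1 stay within narrow ranges.

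The YAP targets differed among themselves in DLPC-treated cells. CYR61 had 13.8, 13.1 and 16.1 CPM with DLPC, against 17.4, 19.5 and 22.4 CPM with Ethanol, without overlap, a log2 difference of -0.46 (SE 0.10). Against DMSO, at 17.8, 16.2 and 16.1 CPM, the log2 difference of CYR61 was -0.22, and the highest DLPC library lay just above the lowest DMSO library. CTGF had 493, 319 and 529 CPM with DLPC, against 414, 312 and 480.1 CPM with Ethanol. In each numbered pair CTGF was higher with DLPC, but the groups overlapped widely, with a log2 difference of 0.15 (SE 0.21). ANKRD1 had 1.69, 2.73 and 4.21 CPM with DLPC, against 3.41, 4.29 and 4.74 CPM with Ethanol, a log2 difference of -0.51 (SE 0.27), and of 0.03 against DMSO. Its DLPC libraries had the widest relative spread of any of the 10 genes in any group, with an SD that was 44.0% of the mean.

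Among the structural genes in DLPC-treated cells, TPM1 and the actins differed in direction. TPM1 had 55.97, 53.8 and 54.6 CPM with DLPC, against 62.2, 61.2 and 59.4 CPM with Ethanol, a small difference without overlap at a log2 of -0.15 (SE 0.04). ACTG1 had 2835, 2483 and 2648 CPM with DLPC, against 2319, 2202 and 2245 CPM with Ethanol, and all 3 DLPC libraries were higher, at a log2 difference of 0.24 (SE 0.06). ACTB had 8141, 7261 and 7709 CPM with DLPC, against 7252, 7117 and 7194 CPM with Ethanol, a log2 difference of 0.10 (SE 0.05) without overlap between the groups. MYL9 (-0.10, SE 0.11), CNN2 (-0.03, SE 0.04) and TPM2 (0.06, SE 0.29) overlapped between DLPC and Ethanol, and these are log2 differences. Against DMSO the DLPC values were -0.14 for TPM1, 0.29 for ACTG1 and 0.15 for ACTB on the same scale.

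At an adjusted p under 0.05, edgeR's quasi-likelihood test called 1.04% of all genes tested between DLPC and Ethanol, and the 3 of the 10 genes past it were ACTG1, higher, and TAGLN and CYR61, lower. With the replicate number as a block 6.74% of all genes were called, and 4 of the 10 with TPM1, lower, added. Nothing is read from these counts because the list was built around the TAGLN difference in this contrast. The TAGLN difference ran from -0.89 to -0.76 (log2) with single libraries of the pair of groups left out. That range is also a description, since TAGLN was selected on these libraries. The median log2 difference of the 10 genes was -0.06, beside 0.00106 over all genes tested.

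**Figure D2:**
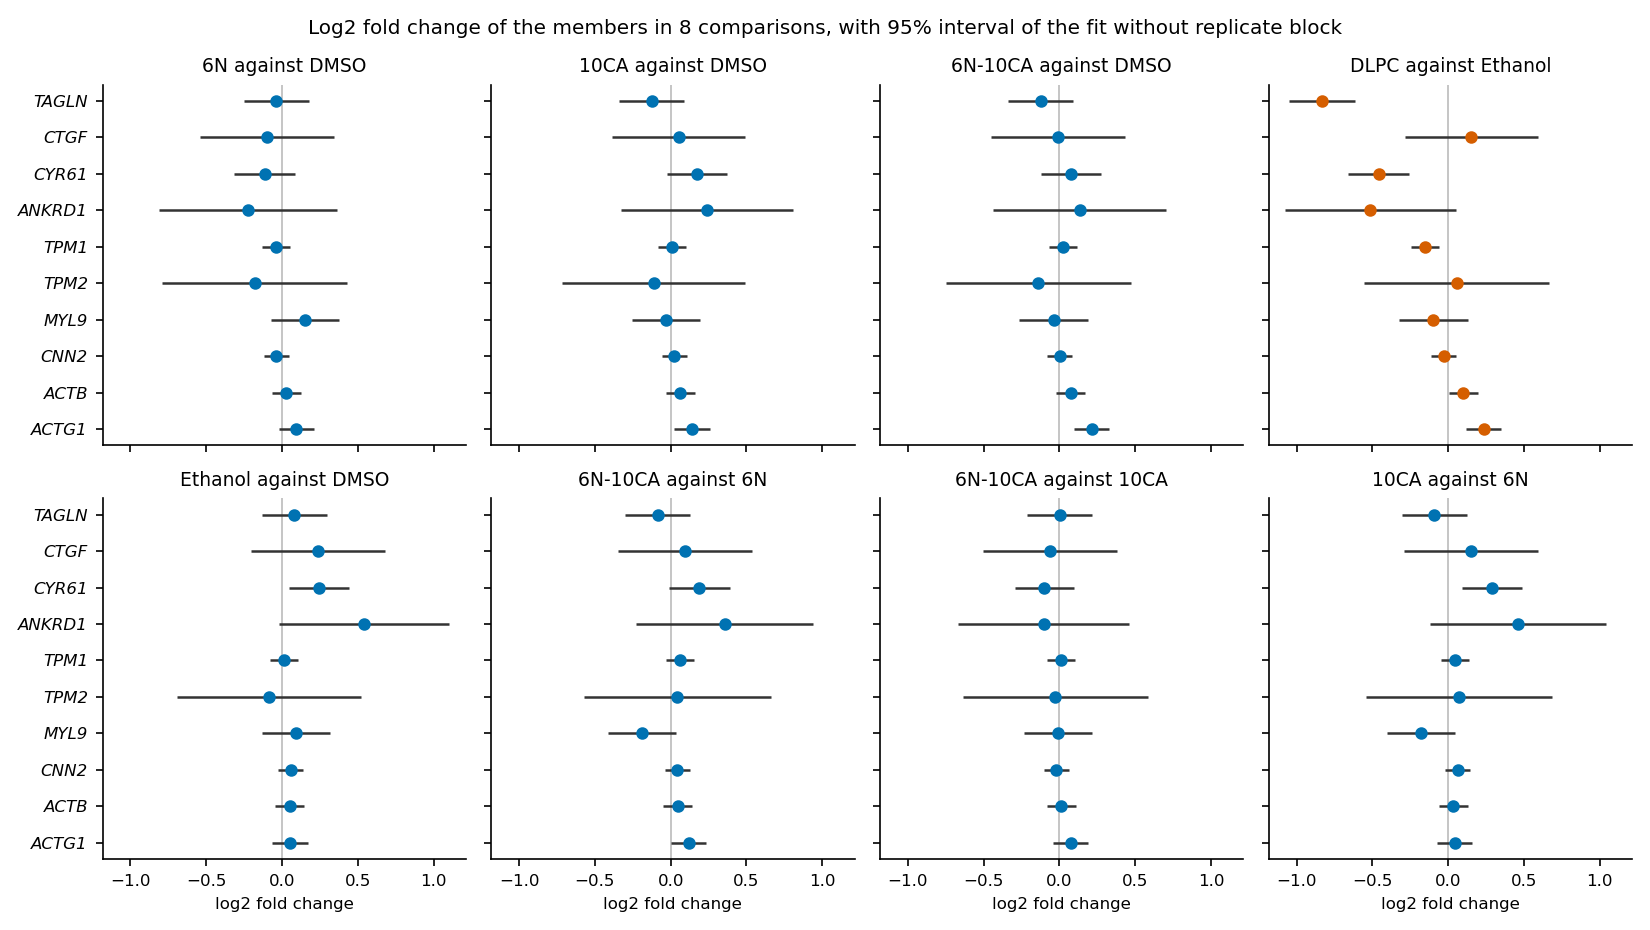
Log2 fold change of each of the 10 genes (rows) in 8 comparisons (panels), first-named group over second, with 95% intervals from the fit without the replicate block. The DLPC panel, in orange, is the contrast on which TAGLN was selected and is a description. TAGLN stands at -0.83 there and between -0.13 and 0.08 in the other 7 panels.

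The small molecules addressed whether ligands of other chemistry moved the same genes, and none of the 3 was followed by a TAGLN difference past the threshold. Against DMSO the log2 fold change of TAGLN was -0.04 with 6N (95% interval -0.25 to 0.18), -0.13 with 10CA (-0.34 to 0.09) and -0.12 with 6N-10CA (-0.34 to 0.09). The libraries of each compound overlapped those of DMSO. DLPC, which stood at -0.83, was given at another dose and is set against another vehicle. The 3 contrasts share the DMSO libraries and are not independent of each other.

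With 6N, edgeR called 0 of the 10 genes against DMSO, where it called 1.14% of all genes. None of the 10 reached an unadjusted p under 0.05 with 6N, beside 1384 of all 14797 genes, and DESeq2 called 0 of the 10. With 10CA, edgeR also called 0 of the 10, and 0% of all genes, with 1033 genes at an unadjusted p under 0.05. Of the 10, 1 gene, ACTG1, was among those 1033, and DESeq2 called 0 of the 10 and 13 genes in all. The replicate block changed no call of the 10 in the 10CA comparison and brought the share of all genes called to 0.216%. The log2 fold changes of the 10 genes ran from -0.22 (ANKRD1) to 0.15 (MYL9) with 6N and from -0.13 (TAGLN) to 0.24 (ANKRD1) with 10CA.

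With 6N-10CA the smallest p of the 10 genes was that of ACTG1. It had 2629.8, 2444 and 2492 CPM with 6N-10CA, against 2248, 2092 and 2183 CPM with DMSO. All 3 treated libraries lay above all 3 DMSO libraries, and the log2 fold change was 0.21 (SE 0.06, 95% interval 0.10 to 0.33). Its adjusted p was 0.1174 in edgeR's quasi-likelihood test and 0.0006603 with the replicate block (log2 0.21, SE 0.03), and DESeq2 gave an adjusted p of 0.02813. Without the replicate block edgeR called 0 of the 10 genes in this comparison and 0.264% of all genes. At an unadjusted p under 0.05 stood 1 of the 10, beside 1466 of all 14797 genes. With the block ACTG1 was the 1 of 10 called, beside 3.8% of all genes, and over the 12 alternatives its log2 fold change stayed between 0.16 and 0.24.

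The order of ACTG1 group means was 2656 ± 176 CPM with DLPC, 2522 ± 96.7 with 6N-10CA, 2396 ± 162 with 10CA, 2323 ± 120.4 with 6N, 2255 ± 58.9 with Ethanol and 2174 ± 78.5 with DMSO (SD, n = 3 each). Each group overlapped the next in that order. ACTB, its close relative, was in the same order for its 2 highest groups, at 7704 ± 440.3 CPM with DLPC and 7302 ± 244 CPM with 6N-10CA, and lowest with DMSO at 6933 ± 23.1 CPM. The log2 fold change of ACTB with 6N-10CA against DMSO was 0.07 (SE 0.05, edgeR adjusted p 0.632), and its libraries did not overlap those of DMSO. The Ethanol libraries, without compound, also lay above those of DMSO for ACTB, at 7117 to 7252 CPM against 6909 to 6955 CPM. The 2 actins have 10 and 20 annotated pseudogenes named after ACTB and ACTG1. Of the 100-base windows of their longest coding transcripts, 3 of 1822 for ACTB and 0 for ACTG1 recurred in a transcript of another gene.

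The 3 small molecules were given at the same dose, so their 3 pairs were compared directly, with p-values adjusted over all 14797 genes. Between 10CA and 6N the gene of the 10 with the smallest p was CYR61, which had 17.5, 19.1 and 19.9 CPM with 10CA, against 14.8, 14.998 and 16.5 CPM with 6N. All 3 libraries with 10CA were above all 3 with 6N. The log2 fold change was 0.29 (SE 0.10, 95% interval 0.09 to 0.49), with an adjusted p of 0.1469 in edgeR and of 0.02075 with the replicate block (log2 0.29). DMSO libraries, at 16.1 to 17.8 CPM, lay between, and overlapped both compounds. Leaving out single libraries kept the log2 fold change of CYR61 between 0.24 and 0.34, and no such fit without the block called it, with adjusted p from 0.1118 to 0.465. ANKRD1, the other YAP target with a positive difference of like size, was at 0.46 (SE 0.28, 95% interval -0.12 to 1.04) and overlapped. CTGF was at 0.15 (SE 0.21, 95% interval -0.29 to 0.60).

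In that pair edgeR called 0 of the 10 genes beside 1.71% of all genes, and DESeq2 called 0 of the 10. At an unadjusted p under 0.05 stood 1 of the 10, beside 2051 of all 14797 genes. With the block, 1 of the 10, CYR61, was called beside 7.66% of all genes. PDGFRB, a receptor of stromal cells, was higher with 10CA at 9.55 ± 1.09 CPM than with 6N at 6.205 ± 0.526 CPM (SD, n = 3 each; log2 0.62, edgeR adjusted p 0.04485). It was the 1 of the 4 tested stromal markers called without the block, and with the block ACTA2, another of the 4, was lower with 10CA than with 6N (log2 -0.13, edgeR adjusted p 0.03763). The list summed to 103.8 to 115.1 CPM with 10CA and 109.1 to 123.5 CPM with 6N. The part of these markers in the CYR61 difference was not tested. The PDGFRB call was lost without 6N replicate 1, 2 or 3 or 10CA replicate 1 or 3, with adjusted p up to 0.1927.

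Between 6N-10CA and 6N, ACTG1 was the gene of the 10 with the smallest p. Its 6N-10CA libraries (2444 to 2629.8 CPM) lay above its 6N libraries, which had 2430.1, 2346 and 2193 CPM. The log2 fold change was 0.12 (SE 0.06, 95% interval 0.00249 to 0.23), with an adjusted p of 0.3331 in edgeR and of 0.02737 with the replicate block. Leaving out 1 library moved it between 0.08 and 0.15. Without the block edgeR called 0 of the 10 beside 1.64% of all genes, and DESeq2 called 0 of the 10. At an unadjusted p under 0.05 stood 1 of the 10, beside 2137 of all 14797 genes. With the block 1 of the 10 was called, beside 8.32% of all genes.

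Between 6N-10CA and 10CA, edgeR called 0 of the 10 genes with and without the block, beside 2.36% and 0.23% of all genes. None of the 10 reached an unadjusted p under 0.05 without the block, beside 1243 of all 14797 genes, and DESeq2 called 0 of the 10. The log2 fold changes ran from -0.10 (ANKRD1) to 0.07 (ACTG1). The 95% interval was -0.21 to 0.22 for TAGLN, -0.30 to 0.10 for CYR61 and -0.04 to 0.19 for ACTG1. With the block it was -0.14 to 0.15 for TAGLN, -0.25 to 0.06 for CYR61 and 0.00683 to 0.14 for ACTG1, whose adjusted p was 0.2607 in edgeR.

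Between the vehicles the log2 differences of the YAP targets were larger than those of the actins, and none passed the threshold. ANKRD1 had 3.41, 4.29 and 4.74 CPM with Ethanol, against 2.26, 2.33 and 3.96 CPM with DMSO, a log2 difference of 0.54 (SE 0.27) with overlap. CYR61 was at 0.24 (SE 0.09) and CTGF at 0.24 (SE 0.21) on the same scale, while TAGLN was at 0.08 (SE 0.10) and both actins were at 0.05 (SE 0.05 for ACTB and 0.06 for ACTG1). Between Ethanol and DMSO edgeR called 0 of the 10 and 0% of all genes, with 479 genes, CYR61 the 1 of the 10 among them, at an unadjusted p under 0.05. DESeq2 called 13 genes and 0 of the 10, and the block called 0.122% of all genes and 0 of the 10. The DLPC values of CYR61 and ANKRD1 therefore differ by vehicle, at -0.46 and -0.51 against Ethanol and at -0.22 and 0.03 against DMSO.

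Libraries that shared a replicate number deviated together, and of the 10 genes CTGF had the smallest p for the number. CTGF averaged 372 ± 68.1 CPM in libraries numbered 1, 286 ± 27.2 CPM in those numbered 2 and 441 ± 56.8 CPM in those numbered 3 (SD, n = 6 each). In all 6 groups number 2 was lowest and number 3 highest, as in the DMSO libraries at 325, 290.1 and 407 CPM. The highest group mean of CTGF was 1.41 times the lowest. Over the 3 numbers edgeR's test of the replicate number, chosen after its values were seen, gave CTGF an adjusted p of 8.534e-09.

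The same test called 5 of the 10 genes, beside 28.2% of all genes. ANKRD1 was lowest in number 1 in all 6 groups, at 2.45 ± 0.585 CPM, against 3.16 ± 0.717 CPM in number 2 and 3.78 ± 0.824 CPM in number 3 (adjusted p 0.004439 in edgeR). ACTG1 and ACTB were highest in number 1 in all 6 groups, at 2501 ± 215 and 7482 ± 397 CPM, with adjusted p of 0.001695 and 0.01547 in edgeR. TAGLN was highest in number 2 in 5 of 6 groups, at 30.1 ± 5.70 CPM (adjusted p 0.006793 in edgeR). CYR61 was highest in number 3 in 5 of 6 groups, and its adjusted p of 0.05402 missed the threshold. ACTB lost the call without the 10CA, the 6N-10CA or the DLPC group, at adjusted p of 0.08108, 0.06368 and 0.07478 in edgeR, and CYR61 gained it without the DMSO group, at 0.007358. What the number marks is not given in the labels.

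**Figure D3:**
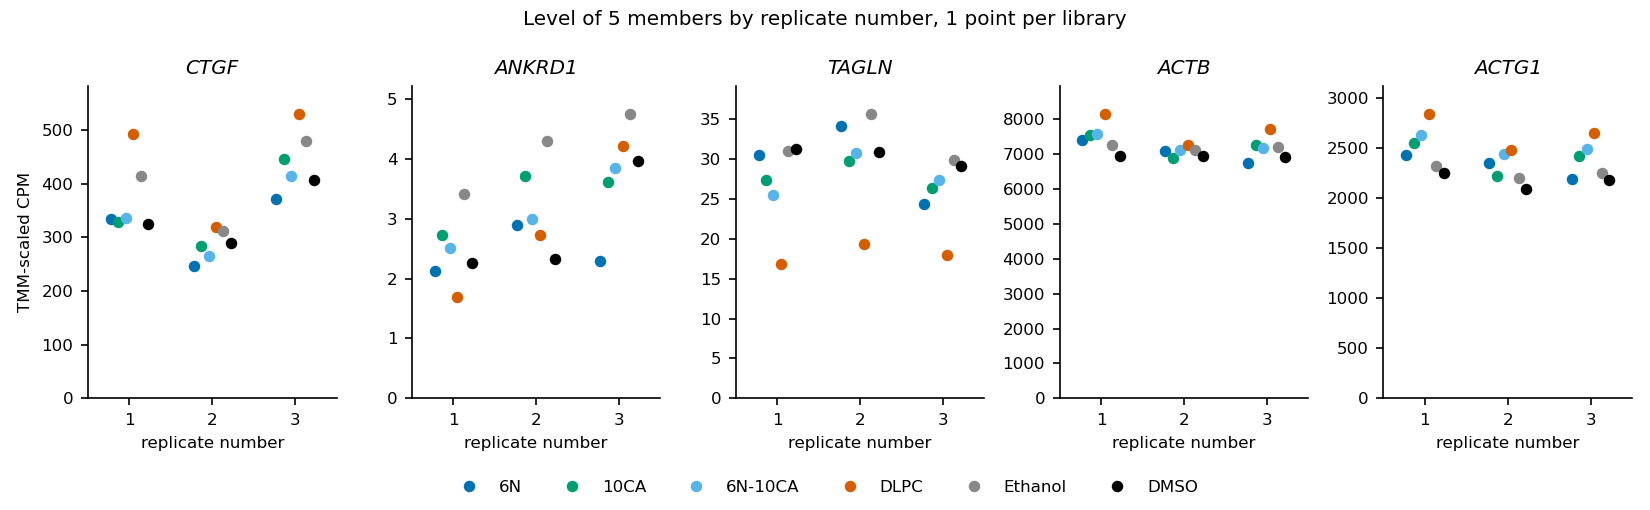
TMM-scaled CPM of the 5 genes called for the replicate number, 1 point per library, by replicate number (horizontal axis) and group (colour), with axes from 0. CTGF is lowest in number 2 and highest in number 3 in all 6 groups, and the DLPC points of TAGLN lie apart from the others at each number.

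Genes whose levels followed TAGLN over the 18 libraries were sought among the 10685 other genes that averaged 5 CPM or more. The 5 most like it by Pearson correlation of log2 CPM were EWSR1, an RNA-binding protein (r = 0.90, Spearman coefficient 0.77), UBD, a ubiquitin-like modifier (r = 0.89, Spearman 0.72), CHRNA5, a nicotinic receptor subunit (r = 0.89, Spearman 0.65), NFKBIZ, a nuclear regulator of NF-kB (r = 0.88, Spearman 0.70), and TUBB2A, a tubulin (r = 0.88, Spearman 0.67). These are descriptions over libraries that share groups, replicate numbers and depth. All 5 were lowest in the DLPC group, which choosing them by likeness to TAGLN, itself chosen as low there, largely fixed in advance. With DLPC, UBD had 16.7 ± 1.73 CPM, against 37.3 ± 2.503 CPM with Ethanol, and NFKBIZ 8.65 ± 0.0246 CPM, against 12.2 ± 0.0677 CPM with Ethanol. UBD also stood apart from TAGLN in being lower with 6N (26.4 ± 2.04 CPM) and 6N-10CA (26.9 ± 1.96 CPM) than with DMSO (35.7 ± 4.61 CPM). The test results of UBD are not given here. Once group means were removed the r values were 0.69 for EWSR1, 0.63 for UBD, 0.51 for CHRNA5, 0.22 for NFKBIZ and 0.59 for TUBB2A.

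Of the other 9 SRF and YAP targets, TPM1 was the most like TAGLN, at r = 0.79 (Spearman 0.51), which ranked 50 among the 10685 genes. CYR61 followed at r = 0.51 and ANKRD1 at 0.27. CNN2 was at 0.02, MYL9 at 0.25 and TPM2 at -0.16. CTGF (r = -0.57), ACTB (-0.64) and ACTG1 (-0.70) ran opposite to TAGLN. These values include the difference between DLPC and the other groups that chose TAGLN. Once group means were removed, r was 0.42 for CNN2, 0.39 for TPM1, 0.19 for MYL9 and ANKRD1, -0.18 for ACTB, -0.19 for CYR61, -0.20 for ACTG1, -0.42 for TPM2 and -0.77 for CTGF. The order thus changed, with CNN2 ahead of TPM1 and CYR61 turned negative.

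**Figure D4:**
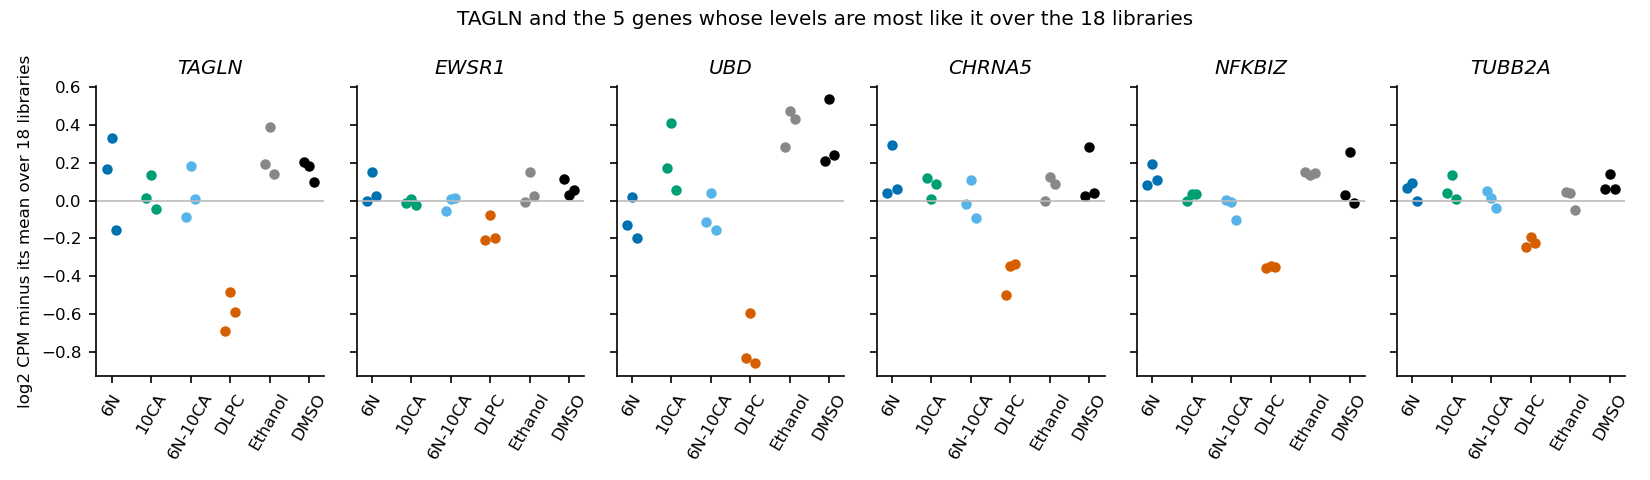
Log2 CPM of TAGLN and of the 5 genes most like it, each library as a point set relative to the mean of the gene over the 18 libraries (0 line), by group. The DLPC libraries are the lowest 3 in every panel, which the choice of these genes largely fixed in advance. UBD alone has its 6N and 6N-10CA points well below its DMSO points.

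Other targets and regulators of the 2 pathways, from lists of textbook targets, were read against the same shares of all genes called. Calls without the block are those of edgeR with the filter on low counts, unless DESeq2 or a fit without that filter is named. Of 22 cytoskeletal SRF and MRTF targets, 21 were tested, and 1 was called without the block in any comparison. That was FLNA, which crosslinks actin filaments, at 488 ± 1.27 CPM with 10CA, against 411 ± 29.5 CPM with 6N (log2 0.25, SE 0.06, edgeR adjusted p 0.04852), where 1.71% of all genes were called. With the block, 3 of the 21 were higher and 1 lower with 10CA than with 6N, beside 7.66% of all genes. The call was lost without 6N replicate 1 or 2 or any of the 3 10CA libraries, at log2 values from 0.19 to 0.26 and adjusted p up to 0.2458. With the replicate block, 2 of the 21 were higher with 6N-10CA than with DMSO and none lower, beside 3.8% of all genes called: ZYX, a focal adhesion protein (log2 0.19, edgeR adjusted p 0.0205), and TPM4, a tropomyosin (log2 0.13, adjusted p 0.0268). DESeq2, without the block, also called both (adjusted p 0.04141 and 0.03057), with 173 genes called in all. ZYX was also higher with 6N-10CA than with 10CA (log2 0.18, edgeR adjusted p 0.03015 with the block). It was the 1 of the 21 called there with the block, beside 2.36% of all genes. With the block, 3 were higher with 6N-10CA than with 6N, namely TPM4, VCL, which couples integrins to actin, and FLNA, at log2 values of 0.13, 0.24 and 0.20, beside 8.32% of all genes called. Of these, DESeq2 without the block called TPM4 and FLNA (adjusted p 0.006502 and 0.04669), with 501 genes called in all. Without the block or the filter, edgeR called FLNA and VCL (adjusted p 0.0267 and 0.04747), with 403 genes called in all. ACTA2, the smooth muscle actin, was lower with DLPC at 91.4 ± 4.52 CPM than with Ethanol at 101.0 ± 2.83 CPM, past the threshold with the block alone (log2 -0.15). Its relative ACTA1, the skeletal muscle actin, had 6.90 ± 0.784 CPM with DLPC, against 10.9 ± 1.04 CPM with Ethanol (log2 -0.66 with the block). ACTA1 was called with the block, by DESeq2 and by edgeR without the filter on low counts. With that filter and no block edgeR did not call it. Of the 21, the other gene called with the block in that contrast was TLN1, which links integrins to actin and was higher, at 286 ± 8.34 CPM with DLPC, against 258 ± 17.3 CPM with Ethanol (log2 0.15). These 2 of 21 stand beside 6.74% of all genes called with the block there.

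Of 12 immediate early SRF targets, 7 were tested. Without the block, 2 were lower and none higher with DLPC, beside 1.04% of all genes called, and none was called in another comparison. IER2 had 25.7 ± 1.24 CPM with DLPC, against 32.6 ± 1.30 CPM with Ethanol (log2 -0.34, SE 0.08), and JUNB, an AP-1 subunit, had 8.02 ± 0.865 CPM, against 10.4 ± 0.462 CPM (log2 -0.38, SE 0.09). Any of the 6 libraries left out ended the IER2 call and any but DLPC replicate 1 the JUNB call. With DMSO in place of Ethanol the IER2 call was also lost (log2 -0.28, edgeR adjusted p 0.06334). Without the filter on low counts the JUNB call was lost (edgeR adjusted p 0.05896). Over the alternatives the log2 values ran from -0.37 to -0.28 for IER2 and from -0.51 to -0.32 for JUNB. The median log2 difference of the 7 was -0.23 with DLPC, beside 0.00106 over all genes, and with the block 3 were lower and none higher, beside 6.74% of all genes. The list was chosen with earlier results of these data known, so these DLPC values are a description. EGR1, an early growth response factor, was higher with 10CA than with 6N past the threshold with the block (log2 0.63, edgeR adjusted p 0.006673), as the 1 of the 7 called beside 7.66% of all genes, and not without it (log2 0.64, adjusted p 0.05432). Without the block or the filter on low counts edgeR called EGR1 (adjusted p 0.007229), with 423 genes called in all.

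Of 19 further YAP and TEAD targets, 17 were tested, and NT5E, a surface ectonucleotidase, was the 1 called without the block. It was lower with 6N at 7.34 ± 1.30 CPM than with DMSO at 11.1 ± 0.684 CPM (log2 -0.59, SE 0.13, edgeR adjusted p 0.01835), where 1.14% of all genes were called. It was also higher with 10CA, at 10.96 ± 0.495 CPM, than with 6N (log2 0.58, SE 0.13, edgeR adjusted p 0.01908), a comparison that shares the 6N libraries. Against DMSO the call was lost without DMSO replicate 1 or 3 or 6N replicate 1 or 2, at log2 values from -0.60 to -0.46, and against Ethanol in place of DMSO, at -0.48 (adjusted p 0.05983). Between 10CA and 6N it was lost without 6N replicate 1 or 2 or 10CA replicate 1 or 3, at 0.45 to 0.58. With the block NT5E was also lower with 6N-10CA than with DMSO (log2 -0.35, edgeR adjusted p 0.0342). It was the 1 of the 17 called there, beside 3.8% of all genes. Between DLPC and Ethanol NT5E was again the 1 called with the block, lower with DLPC (log2 -0.33), beside 6.74% of all genes. Of the 18 Hippo kinases, TEAD factors and their partners, all were tested and none was called without the block in any comparison. At most 3 had an unadjusted p under 0.05, a count reached between 10CA and 6N, beside 2051 of all 14797 genes. With the block TEAD4 was the 1 of the 18 called between 6N-10CA and 6N, beside 8.32% of all genes, and was lower with 6N-10CA (log2 -0.15, edgeR adjusted p 0.03055). VGLL4, a TEAD cofactor, and STK4, a Hippo kinase, were the 2 called between 10CA and 6N, beside 7.66% of all genes, and both were higher with 10CA (log2 0.16 and 0.17, edgeR adjusted p 0.02317 and 0.03714). With DLPC the 1 called with the block was WWC1, a Hippo scaffold, lower than with Ethanol (log2 -0.24), beside 6.74% of all genes.

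**Figure D5:**
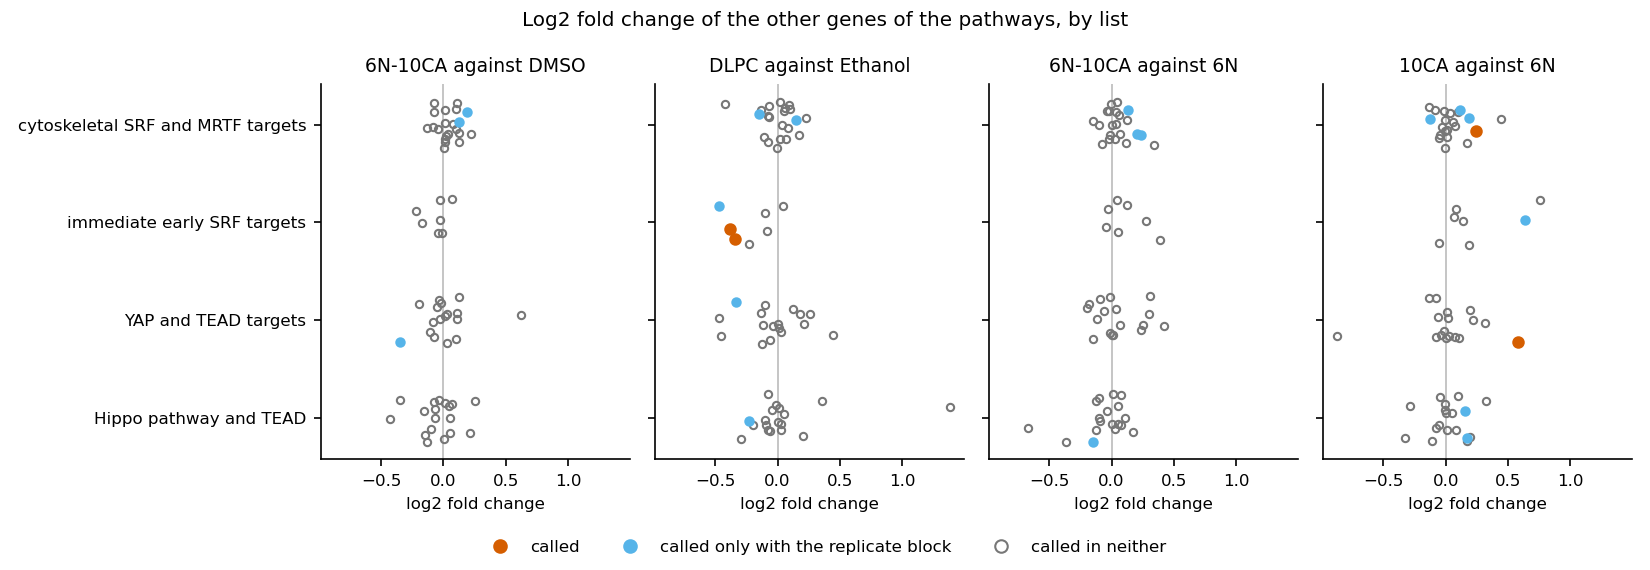
Log2 fold change of the tested genes of 4 lists (rows; 1 circle per gene) in 4 comparisons (panels), first-named group over second. Filled orange circles were called at an adjusted p under 0.05 without the replicate block, blue circles with the block alone and open circles in neither. The immediate early SRF targets of the DLPC panel have a median of -0.23, with IER2 at -0.34 and JUNB at -0.38, given as a description.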

How the data were processed

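RNA was measured in 18 HepG2 libraries, 3 per group. Per the labels' protocols, libraries were prepared with Nextera XT from cDNA after amplification, for single-end NovaSeq sequencing. The authors' deposited table holds raw counts per gene symbol for 35238 rows, of which 28 have symbols turned into dates. The submitters' processing notes name DESeq2 and the build GRCh38, while the aligner, counter, annotation and strandedness were not given in the sources used here. Counts of overlapping genes on opposite strands can therefore hold each other's reads. All columns were matched to samples by name.

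The counts of all 18 libraries entered a single fit in edgeR 4.0.16 (R 4.3.3) with 1 mean per group, TMM scaling and the default filterByExpr filter, which kept 14797 genes holding 99.961% of the counts. Two-sided quasi-likelihood tests were adjusted by Benjamini-Hochberg over these genes, with a threshold of 0.05. The fit had 12 residual degrees of freedom and a biological coefficient of variation of 6.96%, or 4.42% with the replicate number as a block. Deviations of same-numbered libraries correlated at 0.08738 to 0.2296 in 6N against DMSO and at 0.1509 to 0.5865 in every other comparison (10686 genes). These ranges overlap. The block was read as a pairing in all comparisons but 6N against DMSO, a choice taken from the data without a set cut-off. Replicates differed by more than counting noise (chi-square per gene of 4.589 to 14.17).

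The 10 genes and the lists were chosen with earlier results of these data known, the lists from general knowledge of the pathways. From each list, up to 4 called genes per comparison with the smallest p are candidates for naming, from the block fit where the other called none. Results for some listed genes are not reported here. Lengths came from GENCODE 29 and promoters from RefSeq. DESeq2 1.42.0, other scaling, no filter, other vehicles and leaving out each library were alternatives, and the code was tested on simulated data. Precision rests on the counts given beside low genes.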

Additional observations from a re-analysis of the deposited data

How the results depend on the processing

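Of 880 values of the 10 genes under alternatives, 825 kept their side of the threshold or moved by less than 1 standard error, 36 moved further without a call, 8 gained a call, 11 lost one and none changed sign with a call. For the genes that the naming rule picked from the lists these numbers were 486, 18, 98 and 42 of 644. The 11 lost calls were ACTG1 and CYR61 between DLPC and Ethanol, ACTG1 by a narrow margin under RLE scaling (adjusted p 0.05005) and otherwise with 1 library left out, and CYR61 also against DMSO (log2 -0.22). The count of the 10 genes called there was 1 to 2 with 1 library left out, against 3 with all, and it was 1 without Ethanol replicate 2 or 3 or DLPC replicate 1. Without the filter on low counts and by DESeq2, 1 of the 10 was called between 6N-10CA and DMSO, and with the replicate block 1 each between 6N-10CA and DMSO, 6N-10CA and 6N, and 10CA and 6N.

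Counts over all genes moved more. Called for 6N against DMSO were 169 genes, 265 against Ethanol, 270 against both vehicles and 111 to 149 with 1 library left out. With the replicate block, which was not read as a pairing in this comparison, 551 were called. For 10CA against DMSO, 0 genes became 20 without the filter, 32 with the block, 13 by DESeq2 and 0 to 1 with a library left out. For 6N-10CA against DMSO, 39 became 126 without the filter, 562 with the block, 173 by DESeq2, 63 against Ethanol, 129 against both vehicles and 12 to 23 with a library left out. For DLPC against Ethanol, 154 became 329 without the filter, 997 with the block, 380 by DESeq2, 380 against DMSO, 541 against both vehicles and 56 to 118 with a library left out. For Ethanol against DMSO, 0 became 37 without the filter, 18 with the block, 13 by DESeq2 and 0 to 7. For 6N-10CA against 6N, 242 became 403 without the filter, 1231 with the block, 501 by DESeq2 and 138 to 235. For 6N-10CA against 10CA, 34 became 154, 349, 119 and 14 to 28 in the same order. For 10CA against 6N, 253 became 423, 1133, 496 and 141 to 338. The cause of these changes was not tested. Depth limits TPM2 and ANKRD1 most, with 26 to 141 counts per library.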
